A study of Mus musculus with 40 samples.

Results

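Growth hormone, prolactin and several cytokines act on the kidney through receptors that lack an enzyme of their own and use the kinase JAK2. JAK2 phosphorylates the transcription factors STAT5A and STAT5B, which enter the nucleus and switch on target genes, among them Cish and Socs2. The proteins of these targets, CIS and SOCS2, bind the activated receptors and dampen the signal, so their RNA is widely used as a readout of STAT5 activity. BCL6 is a transcriptional repressor whose binding sequence resembles that of STAT5 and which is known, best in liver, to hold back STAT5 target genes.

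The genes described here are 10 members of this axis. They are the growth hormone receptor Ghr, the prolactin receptor Prlr, the kinase Jak2, the factors Stat5a and Stat5b, the feedback inhibitors Cish, Socs1, Socs2 and Socs3, and the repressor Bcl6. They were listed around Cish because Cish was lower in kidney nuclei of nephrectomised mice, so nuclei of nephrectomy and sham are described below without a test. All 10 were found, among 28467 genes in the bulk table and 32285 genes in the nuclei table. The test of the axis therefore rests on the bulk libraries, which came from other mice.

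The study removed the left kidney of male C57BL/6 mice aged 8 to 12 weeks (unilateral nephrectomy, UNx) or opened them without removing it (sham), and took the right kidney. Whole right kidneys were sequenced as 36 bulk libraries, with 6 mice per operation at 24, 48 and 72 h. Nuclei sorted from 4 further kidneys, 2 per operation, were sequenced singly at 24 h. All groups share the strain, the sex, the anaesthesia and the buprenorphine given for pain, and no gene was altered by design in any group.

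The bulk libraries held 14.9 to 24.1 M (1000000) estimated counts. The labels give batch 1 to the 24 h libraries and batch 2 to the later ones, so the time of 24 h and batch 1 cannot be told apart. At 24 h, mitochondrially encoded genes took 25.3% ± 1.07 of counts in sham and 23.1% ± 1.15 in UNx (SD, n = 6 each). At 48 h they took 25.8 to 26.4% in UNx replicates 1 to 5 but 15.2% in UNx replicate 6 and 14.0 to 15.5% in sham. A score built from annotated pseudogenes, set to 0 for the shams of 48 and 72 h and to 1 for those of 24 h, was 0.719 ± 0.0815 (SD, n = 6) in UNx of 24 h and 0.64 to 0.72 in those UNx libraries of 48 h. The part of these library differences in the results below was not tested. Fits with the score or the mitochondrial share as a covariate are given, but both partly follow the operation. The score did not overlap at 24 h, at 0.96 to 1.04 in sham and 0.67 to 0.88 in UNx. At 48 h both set UNx replicates 1 to 5 apart from the shams. A call lost with a covariate at these times cannot tell library differences from nephrectomy. For members described at 48 h the value without UNx replicates 1 to 5 is given too. The nuclei numbered 5342 and 2641 in the shams and 5151 and 3366 in UNx, and any pair of mice shared 1 to 7 barcodes. The first mouse of each group is labelled batch 3 and the second batch 4. Bulk levels are counts per M of library size (CPM) after TMM scaling over all 36 libraries. Whole tissue cannot separate fewer cells of a type from less RNA per cell.

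The promoters of Cish and Bcl6 are shown because the results below turn on this pair. STAT5 dimers bind TTCNNNGAA, a palindrome that reads the same on both strands. The windows run from 250 bases before to 50 bases after each RefSeq start site (build GRCm38.p6), and capitals mark each match. Positions count from the start site at 0.
Cish: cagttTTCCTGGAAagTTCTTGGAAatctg
Bcl6 upstream start: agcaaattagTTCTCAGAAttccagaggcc
Bcl6 downstream start: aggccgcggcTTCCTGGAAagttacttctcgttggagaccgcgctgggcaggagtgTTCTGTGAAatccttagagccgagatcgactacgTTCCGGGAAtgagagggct

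The Cish stretch lies at chr9:107296654-107296683 on the plus strand, inside the gene as GENCODE M21 annotates it (chr9:107296026-107302784), with matches beginning at positions 0 and 11. Of the Bcl6 stretches, both on the minus strand, the first lies at chr16:23988951-23988980, ahead of the annotated gene (chr16:23965052-23988852), with a match at -118. The second lies inside the gene at chr16:23981353-23981461, with matches at -168, -122 and -88. Of 32851 RefSeq windows of 300 bases, 8.3% held the sequence and 0.457% held it at least 2 times. RefSeq windows were found for 9 of the 10 members (Socs2 is named only). Cish, Socs3, Prlr and Bcl6, 4 of these 9, held the sequence, beside 9.55% of all 27025 genes with windows. By window, 5 of the 15 windows of members held it. A match is a description of the letters, not a bound site.

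The receptors and signal carriers were expressed in every whole-kidney library. Per kilobase of exon, the only scale on which levels of different genes are compared here, the sham mean at 24 h was 71.0 CPM per kb for Ghr, 8.93 for Jak2, 6.83 for Stat5b, 2.81 for Stat5a and 2.03 for Prlr. The inhibitors stood at 3.38 CPM per kb for Cish, 1.43 for Socs2, 1.22 for Socs3 and 0.0347 for Socs1, and Bcl6 stood at 8.67. The exon length joins all annotated exons of a gene, 6419 bases for Cish and 15339 for Prlr. The order of the genes on this scale therefore depends on which transcripts are annotated. Socs1, which blocks JAK kinases directly, had group means of 0.10 to 0.28 CPM and did not pass the filter on low counts, so 9 of the 10 members were tested.

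At 24 h, 4 of the 9 members tested changed in whole kidney: Cish rose, and Jak2, Stat5b and Bcl6 fell (edgeR quasi-likelihood test, Benjamini-Hochberg adjusted p under 0.05). Over all 14104 genes the same test called 27.3%, with 14.2% higher and 13.1% lower. At 48 h, Stat5a rose and Jak2 fell, 2 of 9 members against 32.9% of all genes (16.9% higher, 16% lower). DESeq2 and limma each called 5 of the 9 at 24 h, Stat5a in addition, and 2 at 48 h. At 72 h none of the 9 was called, against 1.71% of all genes. Those 249 genes became 102 without UNx replicate 5 and 677 without UNx replicate 6, and leaving out sham replicate 3, 4 or 6 or UNx replicate 1, 3 or 4 gave 109 to 165. At an unadjusted p under 0.05, edgeR, DESeq2 and limma each found 1 of the 9 at 72 h, and neither DESeq2 nor limma called any. The median log2 fold change was -0.22, 0.02 and -0.04 over the members tested at 24, 48 and 72 h, and 0.01, -0.04 and 0.00 over all genes.

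**Figure D1:**
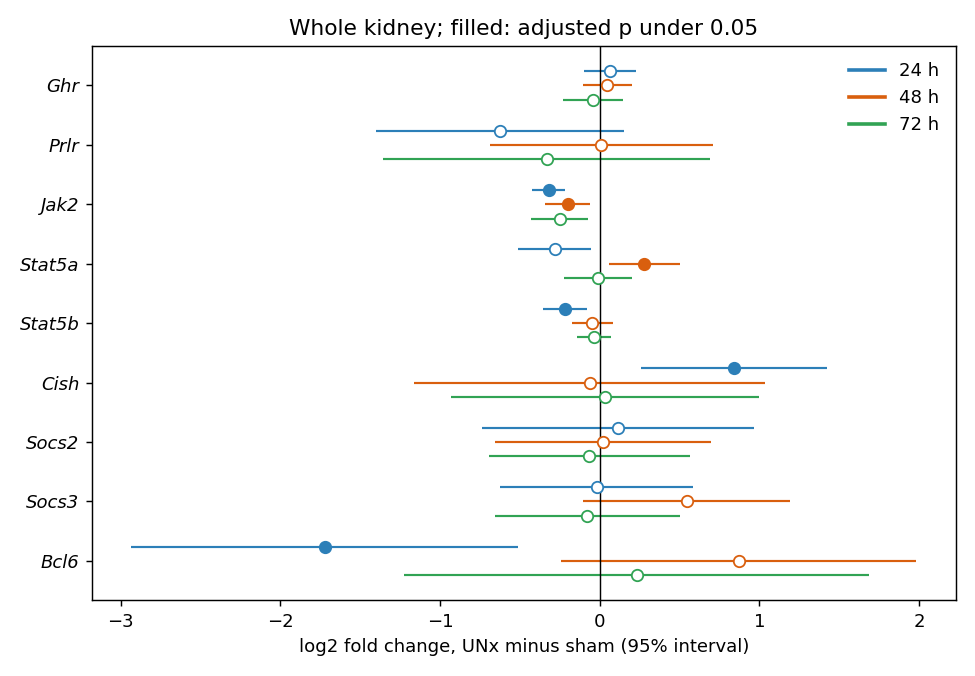
Log2 fold change of UNx against sham (x axis) with its 95% interval for the 9 members tested (y axis) at 24, 48 and 72 h, 6 libraries per group. Filled points passed an adjusted p of 0.05: Cish, Jak2, Stat5b and Bcl6 at 24 h, and Stat5a and Jak2 at 48 h.

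Among the receptors, Ghr, the first step of growth hormone signalling, showed little spread and no called change. Its mean at 24 h was 643 CPM in sham and 667 in UNx, a log2 fold change of 0.06 with a 95% interval of -0.10 to 0.23. The intervals were -0.11 to 0.20 at 48 h, where the value was 0.05 (0.13 without UNx replicates 1 to 5), and -0.23 to 0.15 at 72 h. Prlr varied far more among mice. At 24 h it measured 44.1, 27.4, 21.0, 12.0, 42.2 and 40.2 CPM in sham and 34.2, 10.5, 8.47, 10.0, 27.6 and 29.3 CPM in UNx. The groups overlapped, and the log2 fold change of -0.63 ± 0.37 (SE) did not pass (edgeR adjusted p = 0.217).

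Jak2, the kinase of the axis, gave the steadiest difference. At 24 h the shams held 44.0, 44.4, 41.9, 45.5, 47.1 and 46.5 CPM and the UNx kidneys 36.8, 35.4, 38.0, 36.5, 34.3 and 33.3 CPM. Every UNx library lay below every sham, which 5.02% of all genes did. Jak2 fell by 0.32 on the log2 scale (SE 0.0486, edgeR adjusted p = 0.00045). With the pseudogene-based score as a covariate the value was -0.47 and the call was lost (edgeR adjusted p = 0.157). At 48 h the shams ranged from 30.2 to 35.4 CPM (median 31.2) and UNx from 24.6 to 30.9 CPM (median 27.4), with all 6 UNx libraries below the sham mean. That fall of 0.20 had an edgeR adjusted p of 0.0329. DESeq2, limma and 1 fit of all 36 libraries kept the call, and the other 8 of 11 alternatives lost it, with adjusted p up to 0.821. Among these the value was -0.09 with the mitochondrial share, -0.08 with the score and -0.07 without UNx replicates 1 to 5. Leaving out 1 library lost the call in 7 of 12 fits, those without sham replicate 2, 4 or 5 or UNx replicate 1, 3, 4 or 5, with adjusted p up to 0.0777. At 72 h UNx again lay below the sham mean in 6 of 6 libraries, with means of 28.8 ± 2.24 and 34.1 ± 4.20 CPM (SD, n = 6 each), a log2 fold change of -0.25 that was not called (edgeR adjusted p = 0.136). It was called in the fit of all 36 libraries, without the score (edgeR adjusted p = 0.0397) and with it (edgeR adjusted p = 0.0475).

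The STAT5 factors changed little in size. Stat5b fell by 0.22 at 24 h, from 37.8 ± 1.77 to 32.3 ± 3.32 CPM (SD, n = 6 each), with all 6 UNx libraries below the sham mean (edgeR adjusted p = 0.0230). The call was lost in 3 of 10 alternatives: the mitochondrial share or the pseudogene-based score as a covariate, and all 36 libraries with the score. There the edgeR adjusted p reached up to 0.983, and over the 10 alternatives the value ranged from -0.23 to -0.04. Leaving out UNx replicate 3 or 4 also lost it (edgeR adjusted p up to 0.0505). Stat5a measured 20.0 ± 1.69 CPM in sham and 16.4 ± 2.98 CPM in UNx at 24 h, a log2 fold change of -0.28 (edgeR adjusted p = 0.0618). It passed in DESeq2 (adjusted p = 0.0440), limma (adjusted p = 0.0423) and the edgeR fit of all 36 libraries (adjusted p = 0.0469), and without UNx replicate 5 or 6. At 48 h it rose from 16.3 ± 2.26 to 20.0 ± 2.40 CPM, higher than the sham mean in 6 of 6 libraries, with a log2 fold change of 0.28 (edgeR adjusted p = 0.0499). Leaving out 1 library lost that call in 8 of 12 fits, all but those without sham replicate 2 or 3 or UNx replicate 1 or 6, with adjusted p up to 0.112. It was also lost in 5 of 11 alternatives: no filter on low counts, the mitochondrial share (0.23), the score (0.19), all libraries with the score (0.11, edgeR adjusted p = 0.798) and without UNx replicates 1 to 5 (0.26, edgeR adjusted p = 0.554). The change of the Stat5a effect from 24 to 48 h was 0.59 ± 0.155 (SE) on the log2 scale and passed in a fit of all 36 libraries (edgeR adjusted p = 0.0029). With UNx replicates 1 to 5 of 48 h left out it was 0.55 and did not pass (edgeR adjusted p = 0.217), nor did it with the mitochondrial share (0.51, edgeR adjusted p = 0.485) or the score (0.31, edgeR adjusted p = 0.704). Of all 15093 genes, 37% were called for that difference, and 1 gene with either covariate.

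Cish, the feedback inhibitor around which the list was drawn, was higher in whole kidney at 24 h. The shams held 29.7, 37.9, 25.0, 7.57, 15.6 and 14.3 CPM and the UNx kidneys 30.8, 43.3, 44.9, 36.0, 30.1 and 47.7 CPM. The groups overlapped through the highest sham, and 6 of 6 UNx libraries exceeded the sham mean. The mean went from 21.7 ± 11.2 to 38.8 ± 7.55 CPM (SD, n = 6 each), a log2 fold change of 0.84 with a 95% interval of 0.26 to 1.43 (edgeR adjusted p = 0.0325). The call was lost in 5 of 12 fits that left out 1 library: without sham replicate 5 or 6, or UNx replicate 2, 3 or 6, adjusted p reached up to 0.0733. It was also lost with all 36 libraries in 1 fit (edgeR adjusted p = 0.205), and with the mitochondrial share (edgeR adjusted p = 0.324) or the pseudogene-based score (edgeR adjusted p = 0.884) as a covariate, where the value stayed positive.

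At 48 h Cish ranged from 13.6 to 59.2 CPM in sham and from 7.08 to 68.3 CPM in UNx, with medians of 16.7 and 19.2 CPM. Its log2 fold change was -0.06 with an interval of -1.16 to 1.04. UNx replicate 6 alone held 7.08 CPM, and with replicates 1 to 5 left out the value was -1.88 (edgeR adjusted p = 0.401). At 72 h the range was 12.8 to 44.6 CPM in sham and 10.5 to 54.9 CPM in UNx, and the log2 fold change was 0.03 with an interval of -0.93 to 1.00. A difference of 1.5-fold either way lies within both intervals. The change of the Cish effect from 24 to 48 h was -0.88 ± 0.67 (SE) and did not pass (edgeR adjusted p = 0.316), nor did that from 24 to 72 h at -0.79 (edgeR adjusted p = 0.542) or from 48 to 72 h at 0.09 (edgeR adjusted p = 0.947). These 3 differences were called for 37%, 4.15% and 14.6% of all genes. The second count, 626 genes, was 405 and 376 without sham replicate 4 or 6 of 24 h, and the third, 2210, was 3766 without UNx replicate 6 of 48 h. So the effect at 24 h was not shown to differ from those at the later times.

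The other inhibitors did not follow Cish past the threshold. Socs2, the second STAT5-induced inhibitor and the main brake on growth hormone in body growth, held 5.87, 31.0, 19.2, 5.40, 9.99 and 10.2 CPM in sham of 24 h and 8.32, 13.3, 24.0, 22.1, 6.91 and 13.0 CPM in UNx. Its log2 fold change was 0.12 with an interval of -0.74 to 0.97, within which a difference of 1.5-fold either way lies. Socs3, induced mainly through STAT3 by cytokines of the interleukin-6 family, held a median of 2.87 CPM in sham and 3.60 CPM in UNx at 24 h. At 48 h its means were 2.54 and 3.72 CPM, a log2 fold change of 0.54 that was not called (edgeR adjusted p = 0.179), and 0.62 without UNx replicates 1 to 5 (edgeR adjusted p = 0.568).

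Bcl6 was lower in UNx at 24 h and spread widely within groups. The shams held 11.0, 18.3, 26.8, 93.2, 100.3 and 98.8 CPM and the UNx kidneys 47.7, 8.88, 8.25, 9.42, 21.4 and 8.51 CPM. Replicates 4 to 6 of sham stood above every UNx library, whereas replicates 1 to 3 overlapped UNx. Bcl6 fell by 1.72 on the log2 scale (SE 0.571, edgeR adjusted p = 0.0356), with 6 of 6 UNx libraries below the sham mean. Leaving out 1 library gave values from -2.35 to -1.50 and lost the call in 8 of 12 fits, all but those without sham replicate 1, 2 or 3 or UNx replicate 1. The call was also lost in 5 of 10 alternatives: the replicate block, all 36 libraries in 1 fit (-1.74, edgeR adjusted p = 0.0596), that fit with the score (-1.65, edgeR adjusted p = 0.233), the mitochondrial share (-2.15, edgeR adjusted p = 0.243) and the score (-1.69, edgeR adjusted p = 0.919). At 48 h UNx exceeded the sham mean in 5 of 6 libraries, with a log2 fold change of 0.87 that was not called (edgeR adjusted p = 0.210), and 0.47 without UNx replicates 1 to 5 (edgeR adjusted p = 0.820). The change of the Bcl6 effect from 24 to 48 h was 2.62 ± 0.947 (SE) and passed (edgeR adjusted p = 0.0279), but not without sham replicate 5 or 6 of 24 h (adjusted p up to 0.0519). Without UNx replicates 1 to 5 of 48 h it was 2.21 and did not pass (edgeR adjusted p = 0.405), nor did it with the mitochondrial share (1.70, edgeR adjusted p = 0.747) or the score (2.37, edgeR adjusted p = 0.647).

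**Figure D2:**
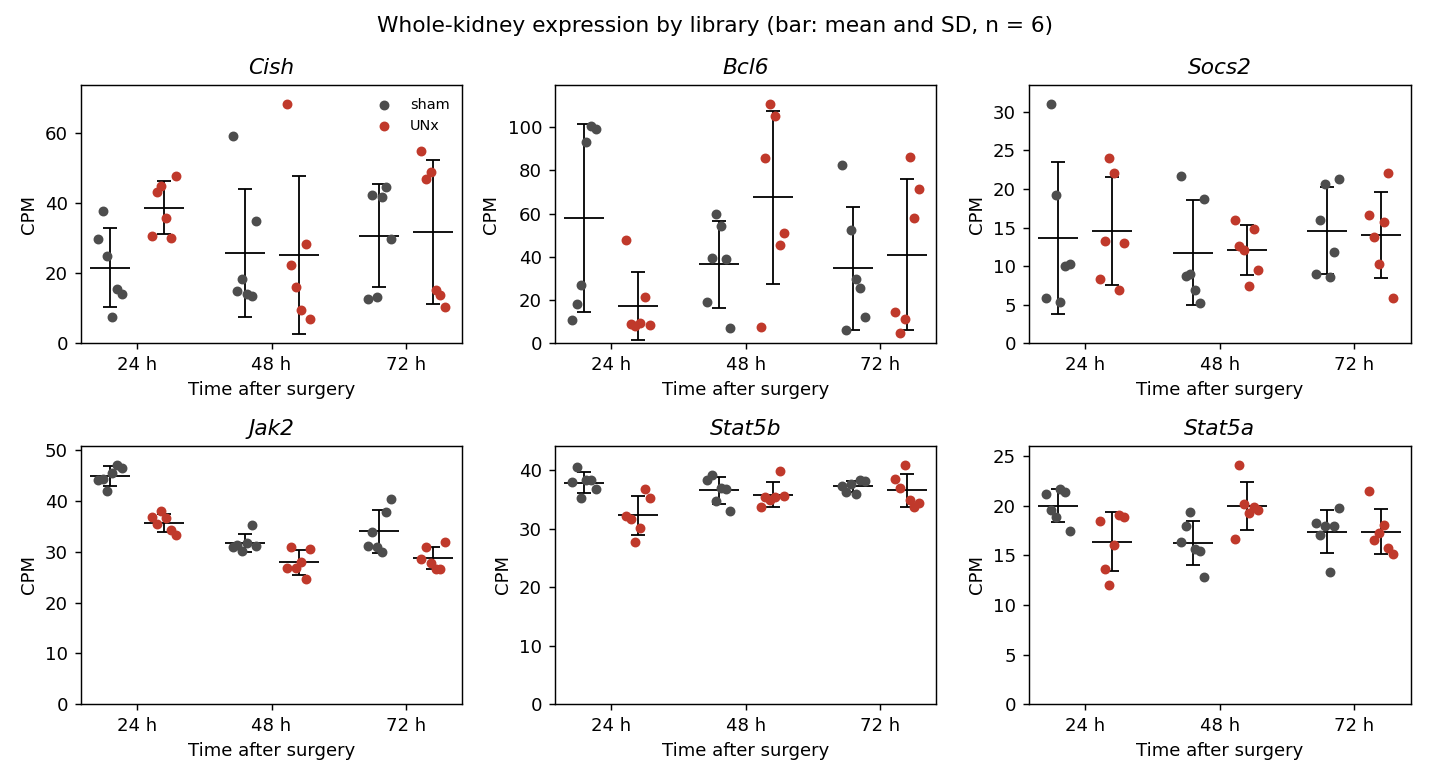
Level in CPM (y axis) of 6 members in each whole-kidney library by time after surgery (x axis), with the group mean and SD, 6 libraries per group. Jak2 in UNx of 24 h lies between 33.3 and 38.0 CPM, below every sham of that time, while Cish and Bcl6 spread several-fold within groups.

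Cish and Bcl6 moved in opposite directions from mouse to mouse, in sham and UNx alike. Each library's log2 CPM was set against the mean of its own group, so that neither time nor surgery enters. Within groups the SD was 0.891 log2 units for Cish and 1.36 for Bcl6, against 0.143 for Ghr and 0.0954 for Stat5b. Across the 36 libraries Pearson's r between Cish and Bcl6 was -0.783 and Spearman's rho -0.793. In 31 of 36 libraries the pair lay on opposite sides of their group means. The permutation p, shuffled within groups, was 1e-05 for both measures, the smallest that 100000 resamples can give (adjusted p = 0.0168 over 15092 genes).

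Bcl6 was the most negative of all 15092 genes, whose r had a median of -0.003 and 5th and 95th percentiles of -0.332 and 0.339. The value was -0.810 in batch 1 (n = 12), -0.785 in batch 2 (n = 24), -0.767 over the 18 shams and -0.797 over the 18 UNx libraries. Without the UNx libraries of 48 h it was -0.803, and without the 2 libraries farthest from the Cish median -0.789. Pooled over groups, the largest gap between neighbouring deviations was 12.5% of the range for Cish and 16.1% for Bcl6. Each group was centred on its own mean, so this gap cannot show whether a group holds clusters. In sham of 24 h and UNx of 72 h, replicates 1 to 3 lay above the group mean for Cish and below it for Bcl6. Replicates 4 to 6 of these groups had the opposite order. The other groups did not split by number in this way. The part of such blocks in r was not tested. The Cish and Bcl6 calls at 24 h come from the same 12 libraries, so they are not independent of each other.

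**Figure D3:**
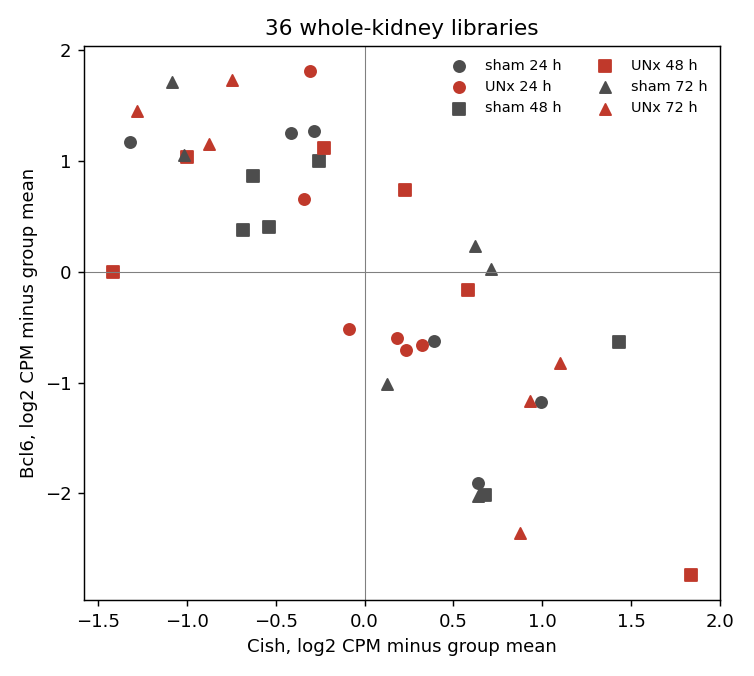
Deviation of each of 36 whole-kidney libraries from its group mean in log2 CPM, for Cish (x axis) and Bcl6 (y axis), with time by symbol and surgery by colour. Libraries high in Cish were low in Bcl6 (Pearson's r = -0.783), in sham and UNx libraries alike.

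In all, 10 genes (0.0663%) passed the adjusted threshold for correlation with Cish, 9 of them positive. The strongest was Trib2, which encodes a pseudokinase, at r = 0.852, followed by Ihh, a hedgehog ligand, at 0.826 and Jade2 at 0.783. Vgll4, a cofactor that restrains the Hippo pathway's TEAD factors, stood at 0.781. Resf1 (0.769), Rgs3 (0.760), Nol4l (0.733) and 6430571L13Rik (0.649) also passed. Nfil3, a repressor tied to the circadian clock, stood at 0.706. In the batch of 24 h, with 12 libraries, r was 0.759 for Trib2, 0.521 for Ihh and 0.447 for Resf1. Socs2 had an r of 0.481 with Cish, unadjusted permutation p = 0.0036 and adjusted p = 0.417. For the other members r with Cish lay between -0.234 (Prlr) and 0.135 (Stat5b).

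In the nuclei, described without a test because they chose the list, Cish was lower in UNx and most so in the proximal tubule. Over all nuclei the shams held 50.4 and 48.3 CPM and the UNx mice 10.3 and 8.18 CPM. Both UNx mice lay below both shams, as they did for 12.1% of all genes. The log2 ratio of UNx to sham was -2.29 in batch 3 and -2.56 in batch 4. In the proximal segment labelled PTS2 the shams held 68.9 and 57.4 CPM. The UNx mice there held 0.279 CPM, from 3 UMIs and with an exact Poisson interval of 0.0575 to 0.815, and 3.30 CPM, from 18 UMIs, with an interval of 1.95 to 5.21. PTS1 held 48.2 and 44.0 CPM in sham and 1.21 and 5.26 CPM in UNx. PTS3 held 73.8 and 66.3 CPM in sham and 0.918 and 3.33 CPM in UNx. These intervals cover counting error only, at 95%. The authors' finer labels split these segments by operation, so the groups' nuclei sit in different clusters there. Their finer PTS2 held 657 and 323 nuclei of the shams and 0 and 3 of the UNx mice, and their UNx PTS2 held 2 and 1 against 699 and 403. PTS3 held 498 and 204 against 0 and 3, and UNx PTS3 held 4 and 7 against 502 and 453. PTS1 held 945 and 522 against 14 and 61, and UNx PTS1 held 14 and 16 against 756 and 369. Values for PTS1, PTS2 and PTS3 here join both labels. Within UNx PTS1, Cish was 32.5 and 17.9 CPM in the shams, from 4 and 3 UMIs, and 1.23 and 4.20 CPM in the UNx mice, from 12 and 15.

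Outside the proximal tubule the log2 ratio of group means lay between -2.93 (Fib) and -0.18 (DTL1), leaving out Per, where both UNx mice had no Cish UMI, against -5.14 to -3.83 in the 3 proximal classes. In batch 4 alone ICB, with 47.6 CPM in sham and 4.91 CPM from 3 UMIs in UNx, differed by more than PTS1, and MD had no UMI in the 10 nuclei of that UNx mouse. The thick ascending limb class MTAL held 58.2 and 58.1 CPM in sham and 36.0 and 17.4 CPM in UNx. The distal convoluted tubule (DCT) held 38.2 and 52.8 CPM against 25.4 and 11.9 CPM. In the class CPC, 56.8 and 41.6 CPM stood beside 55.9 and 22.3 CPM, so the groups overlapped. Over 23 classes with at least 10 nuclei in each mouse, Cish was lower in both UNx mice than in both shams in 15 and overlapped in 8. Of all pairs of gene and class 12.4% had that order, from 9.57 to 15.2% per class, and nothing is read from the comparison, since Cish was chosen on it.

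The share of nuclei with a Cish UMI told the same. In PTS2, after thinning each nucleus to 3600 UMIs, it was 20.8 and 18.2% in sham and 0.00 and 0.49% in UNx. Before thinning it was 49.6 and 49.4% against 0.43 and 4.19%, and 6 nuclei of the first sham were too shallow to keep. In the class MPC the thinned share was 3.27 and 8.97% in sham and 1.53 and 0.00% in UNx. Of the listed principal-cell markers, Aqp2 was highest in MPC (570 CPM, next CPC with 461), Scnn1b and Scnn1g in CNT, and Fxyd4 in CPC. The 3 proximal classes gave 21.8, 24.1 and 22.1% of the Cish UMIs of the first sham, and 2.35, 0.587 and 1.37% of those of the first UNx mouse.

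Ghr, which was highest in the proximal tubule, was also read in other classes, mostly in batch 4. It measured 121 and 135 CPM in MPC of the first sham and UNx mice but 1573 and 1731 CPM in the second of each. In endothelial class EC1 it measured 344 and 454 CPM against 2175 and 2476 CPM. Cish in MPC was likewise 7.37 and 37.96 CPM in the 2 shams. The part of free RNA in the Cish difference outside the proximal tubule was not tested.

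**Figure D4:**
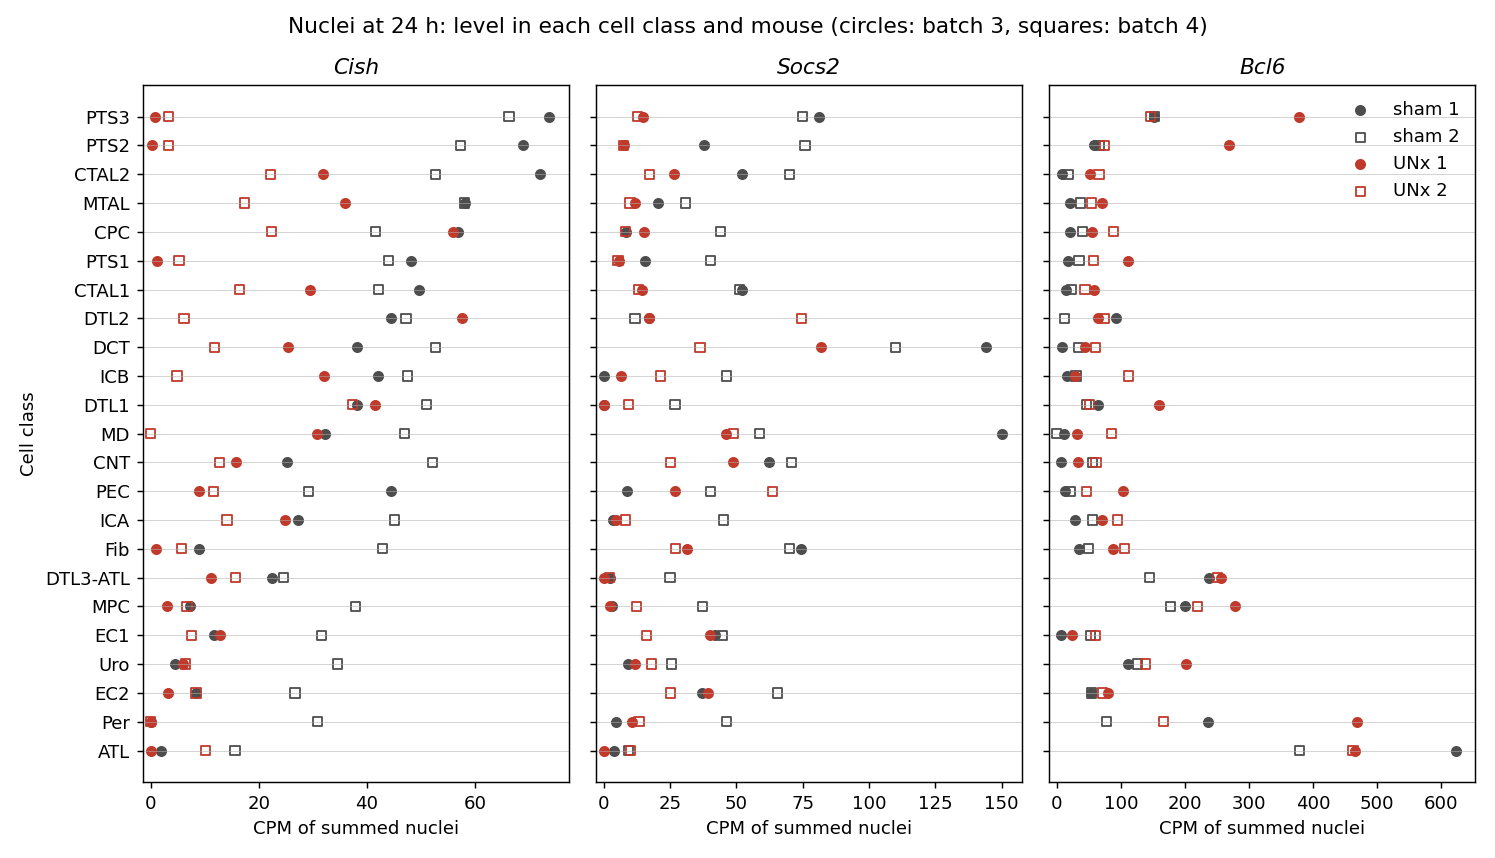
Level of Cish, Socs2 and Bcl6 (x axes, CPM of summed nuclei) in 23 cell classes (y axis, ordered by Cish in sham) of 2 sham and 2 UNx mice at 24 h. Circles are batch 3 and squares batch 4. In PTS1, PTS2 and PTS3 the UNx points for Cish lie between 0.279 and 5.26 CPM and the sham points between 44.0 and 73.8 CPM.

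Socs2 shared the direction of Cish in these nuclei. It held 42.8 and 58.6 CPM over all nuclei of sham and 15.9 and 14.4 CPM in UNx. In PTS2 the values were 37.9 and 75.9 CPM against 7.53 and 7.53 CPM. It was lower in both UNx mice in 11 of 23 classes and overlapped in 12, beside 12.4% of all pairs of gene and class (9.57 to 15.2% per class). Bcl6 had the opposite order in 15 of 23 classes and overlapped in 8, beside 9.49% of all pairs of gene and class (5.96 to 13.3% per class). Over all nuclei it held 62.4 and 69.2 CPM in sham and 183 and 101 CPM in UNx, an order that 7.99% of all genes had. In PTS2 it held 57.9 and 66.6 CPM in sham but 269 and 74.6 CPM in UNx, so the rank order rested on a small gap in batch 4. In PTS3 the values were 152 and 152 CPM against 377 and 146 CPM, which overlap.

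The receptors and signal carriers differed less in nuclei. Ghr overlapped in 23 of 23 classes, with 4163 and 4048 CPM over all nuclei of sham and 5519 and 4140 CPM in UNx. Prlr held 12.0 and 106.8 CPM in sham and 29.0 and 30.5 CPM in UNx, a spread between the shams wider than that between the groups. Jak2 held 62.7 and 58.9 CPM in sham and 63.0 and 56.5 CPM in UNx. Stat5b held 134 and 123 CPM against 168 and 124 CPM. Stat5a stood at 19.0 and 25.0 CPM in sham and 27.8 and 33.1 CPM in UNx. Both UNx mice were higher, an order that 7.99% of all genes had. Socs1 and Socs3 were below 1 CPM over all nuclei of each mouse.

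At the shared time of 24 h the nuclei and the whole kidneys thus differed in direction for Cish and Bcl6. In nuclei Cish was lower and Bcl6 higher in UNx, and in whole kidney Cish was higher and Bcl6 lower. The mismatch was not particular to this pair. Stat5a had a log2 fold change of -0.28 in whole kidney, not called by edgeR, but was higher in both UNx mice over all nuclei. Jak2 and Stat5b, called lower in whole kidney, overlapped between the groups over all nuclei. The nuclei came from 4 other mice, other labelled batches and a mid-kidney section, and hold nuclear RNA only. These differences between the assays cannot be told apart from one another. Among the 6 whole-kidney shams of 24 h Cish ranged from 7.57 to 37.9 CPM, and the nuclei offer 2 shams.

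Within sham nuclei the members differed in the class that held the most, though several top classes overlapped the next. Cish was read in many classes. Its sham mean was 70.0 CPM in PTS3, 63.1 in PTS2, 62.4 in CTAL2 and 58.1 in MTAL. The ranges of these classes over mice overlapped from each to the next. Cish was lowest in EC2 at 17.5 CPM, Per at 15.5 and ATL at 8.77, also with overlapping ranges. In these 3 classes the first sham held 8.34, 0 and 1.92 CPM and the second, of batch 4, 26.7, 30.9 and 15.6 CPM. The part of free RNA in these low levels was not tested. Ghr was highest in PTS3 with 16417 and 13240 CPM, above PTS2 with 5593 and 6735 CPM and PTS1 with 2007 and 2859 CPM, without overlap between PTS3, PTS2 and PTS1. Socs2 was highest in DCT with 144 and 110 CPM, which overlapped the next class, MD. Stat5a was highest in MTAL with 53.1 and 46.3 CPM, which overlapped the next class, CTAL1, with 47.3 and 45.9 CPM. Stat5b was highest in PTS3 with 206.5 and 186.8 CPM. Bcl6 was highest in ATL, with 622 and 379 CPM, and did not overlap the next class.

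Across the 23 classes of sham nuclei, the genes most like Cish were Oxct1, a ketone-body enzyme, with a Pearson's r of log2 CPM of 0.775 in the lower of the 2 shams, Klhl32 (0.745), Rffl (0.741), the nuclear receptor Esrrg (0.736) and Nfyc (0.720), out of 12747 genes. The classes share libraries and depth, so these values are descriptive. Listed markers placed some of the authors' classes but not all. The 7 proximal markers were highest in PTS1, PTS2 or PTS3, and Slc12a3, Pvalb and Trpm6 in DCT. Of the thick ascending limb markers, Slc12a1 was highest in MTAL (17271 CPM, next CTAL2 with 17026), Umod in CTAL2 and Cldn16 in CTAL1. Some markers of other lists led in classes of another type: the mural marker Ren1 and the immune marker Ptprc were highest in ICA. Markers were ranked only over the 23 classes with at least 10 nuclei in each mouse, of 30 classes. A marker of a class left out could not lead in its own class, so such a lead says nothing about the authors' labels.

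Other genes of the pathway were described from lists in whole kidney. The gene lists are known members chosen with earlier results of these data in view, and no test was made of a list. Of 16 listed STAT5 target genes outside the members, 13 were tested at 24 h: 2 rose, 2 fell, a share near that of all genes (27.3%), and the median log2 fold change was 0.24. Cdkn1a, a cell-cycle inhibitor, rose by 0.70 (edgeR adjusted p = 0.0047) from 3.51 to 5.70 CPM, without overlap, and Ccnd3, a cyclin, rose by 0.24. Ccnd1, another cyclin, fell by 0.44, and the survival factor Mcl1 fell by 0.17. At 48 h 4 rose and 1 fell, against 32.9% of all genes, with a median of 0.02: the growth regulator Myc rose by 0.72 and the survival factor Bcl2l1 by 0.26, while Igf1, the growth factor induced by growth hormone in liver, fell by 0.62 from 13.7 to 9.01 CPM. At 72 h Cdkn1a alone was called, up by 0.87, and the median was -0.04.

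No other JAK or STAT gene was called by edgeR at any time, of 7 tested, with medians of 0.02, 0.02 and -0.01. At an unadjusted p under 0.05 edgeR found 1 at 24 h and 0 at 48 and 72 h, and DESeq2 and limma each called 1 at 24 h and 0 later. Of 17 STAT5-coupled receptors and ligands tested, 0 rose and 3 fell at 24 h, 2 rose and 5 fell at 48 h, and 0 rose and 2 fell at 72 h, against 27.3, 32.9 and 1.71% of all genes, with medians of 0.01, -0.27 and -0.17. Insr, the insulin receptor, fell at each time, by 0.24, 0.34 and 0.26. Il5ra, a subunit of the interleukin-5 receptor, fell by 0.86, 1.13 and 1.21, from 3.73 ± 1.18 to 1.62 ± 0.574 CPM at 72 h (SD, n = 6 each, edgeR adjusted p = 0.0280). Thpo, the ligand thrombopoietin, rose by 0.68 at 48 h.

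Of 15 other negative regulators, 1 rose and 4 fell at 24 h, and 4 rose and 5 fell at 48 h, against 27.3 and 32.9% of all genes, with medians of -0.04 and 0.04. Socs7 rose by 0.22 and the phosphatase gene Dusp1 fell by 0.41 at 24 h. At 48 h the phosphatases Ptpn2 and Ptpn6 rose by 0.41 and 0.30, and Socs4 and Socs6 fell by 0.53 and 0.41. At 72 h edgeR, DESeq2 and limma called none of the 15, with 5 at an unadjusted p under 0.05 in each. Il2rg, the common cytokine receptor chain, rose by 0.48 at 48 h. Il2rg and Ptpn6 are also expressed by leukocytes. The 10 immune markers summed to 59.8 to 85.5 CPM in sham and 48.3 to 70.1 CPM in UNx at 48 h, with 1 higher and 1 lower of 6 tested, and their part was not tested.

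The gp130 and STAT3 branch, through which interleukin-6 cytokines induce Socs3, had 1 gene up and 1 down of 14 tested at 24 h and 2 up and 3 down at 48 h, against 27.3 and 32.9% of all genes, with medians of 0.05 and -0.16. Cebpb rose by 0.56 at 24 h, and Lifr, a receptor of the branch, fell by 0.20 at 24 h and 0.28 at 48 h. At 48 h Bcl3 rose by 1.36, from 2.50 ± 0.324 to 6.49 ± 1.64 CPM (SD, n = 6 each, edgeR adjusted p = 0.00035), Junb rose by 0.42 and Spp1 fell by 0.55. At 72 h edgeR, DESeq2 and limma called none of the 14, and an unadjusted p under 0.05 was found for 1 in edgeR and DESeq2 and 3 in limma. With UNx replicates 1 to 5 left out, edgeR called none of the 15605 genes tested at 48 h, with 2232 at an unadjusted p under 0.05. That fit has 1 UNx library, assumed to vary like the shams, and it bears on each 48 h call of the lists above and of the genes tied to Bcl6.

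Of 6 genes tied to Bcl6, which acts through corepressors such as Ncor1 and Bcor, 2 rose at 48 h, against 32.9% of all genes, with a median log2 fold change of 0.25. Nfil3, also on that list, rose at 24 h by 1.48 (edgeR adjusted p = 0.0058), from 2.01 ± 1.01 to 5.61 ± 2.84 CPM (SD, n = 6 each). At 48 h the deacetylase gene Hdac3 rose by 0.24 and Ncor1 by 0.26. At 72 h edgeR called none of the 6, with 2 at an unadjusted p under 0.05, and DESeq2 and limma called 1 each. In nuclei Nfil3 held 2.03 and 2.03 CPM in sham and 0.87 and 0.90 CPM in UNx, so it, too, had opposite directions in nuclei and whole kidney at 24 h.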

How the data were processed

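Male mouse right kidneys were measured by bulk RNA-seq (36 libraries) and single-nucleus RNA-seq (4 mice), grouped by the labels. The members and gene lists were chosen with earlier results of these data known. Bulk values are estimated counts per gene that the authors deposited without normalization; per the submitters' processing notes, Salmon 1.5.0, FastQC 0.11.8, R 4.10 and GRCm39 were used, with no settings. Nucleus values are estimated UMI counts deposited with the authors' cell classes; the notes name alevin, Seurat and mm10, and their filters and any doublet removal are not stated there. No doublet caller was run. Salmon shares reads between similar transcripts, so 34.1% of bulk values are not whole, and counts were rounded.

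Genes were tested per time with edgeR 4.0.16 in R 4.3.3 (quasi-likelihood, filterByExpr, TMM, two-sided, Benjamini-Hochberg over all genes, call under 0.05). Differences between times used 1 fit of all 36 libraries. Each SE was taken from the fold change and its F statistic. On simulated data for 24 h the share of planted changes recovered was checked. Replicates are separate mice per the labels; no pair of libraries agreed within sampling noise. Bulk numbers did not pair sham with UNx: 0, 0 and 2 of 6 same-numbered pairs correlated over 0.1 at 24, 48 and 72 h. Nuclei were summed per mouse and class (30 classes, 23 with at least 10 nuclei in each mouse). Gene symbols and lengths came from GENCODE M21 (GRCm38), promoters from RefSeq. The text names all members, from each list the called genes with the lowest p (at most 2 per direction and time), and the 5 genes most like Cish across classes; 1 result under this rule is not reported here. The correlation with Cish across libraries, and its 10 genes, were added after seeing the data. Alternatives were DESeq2 1.42.0, limma 3.58.1, other size factors and filters, covariates and left-out libraries.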

Additional observations from a re-analysis of the deposited data

Results flagged for a closer look

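In 8 of 60 groups of 6 libraries (10 members, 6 groups), the highest library stood far from the others by Dixon's test at 95%. Chance flags about 1 group in 20 where values are normally distributed. CPM were used without a log scale, so that rate need not hold here. Cish in UNx replicate 1 at 48 h held 68.3 CPM, and the next library 28.5 CPM. Bcl6 in UNx replicate 1 at 24 h held 47.7 CPM, and the next 21.4 CPM. Prlr in sham replicate 1 at 72 h held 60.8 CPM beside 24.9 CPM. Socs3 held 7.69 CPM in sham replicate 1 at 24 h beside 3.72 CPM, and 7.40 CPM in UNx replicate 3 at 48 h beside 3.93 CPM. Smaller gaps were those of Jak2 in sham replicate 5 at 48 h (35.4 CPM, next 31.7), Stat5b in UNx replicate 5 at 48 h (39.8 CPM, next 35.6) and Socs1 in UNx replicate 6 at 72 h (0.451 CPM, next 0.292).

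The effect of nephrectomy differed between 24 and 48 h for Stat5a, by 0.590 on the log2 scale (edgeR adjusted p = 0.0029), and for Bcl6, by 2.62 (edgeR adjusted p = 0.0279). Stat5a was not called at 24 h nor Bcl6 at 48 h. Of all genes, 37% were called for this difference. It did not pass with the mitochondrial share, the pseudogene-based score or without UNx replicates 1 to 5 of 48 h, where adjusted p was up to 0.704 for Stat5a and up to 0.747 for Bcl6, nor for Bcl6 without sham replicate 5 or 6 of 24 h. The times also differ in labelled batch, and at 48 h in the 5 UNx libraries with a high mitochondrial share, so neither can be told apart from time.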

How the results depend on the processing

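Cish at 24 h stayed positive in all 10 alternatives and lost its call in 4: all 36 libraries in 1 fit (0.84), that fit with the pseudogene-based score (1.65), and the mitochondrial share (0.67) or the score (0.61) as a covariate at 24 h. With the replicate block, which pairs mice by number although the numbers did not pair them, Cish at 24 h was 0.96 (edgeR adjusted p = 0.0198) and Prlr at 24 h was called (-0.70, edgeR adjusted p = 0.00812), while Bcl6 at 24 h and Jak2 at 48 h lost their calls. Leaving out 1 library gave 0.66 to 1.07 for Cish at 24 h, -0.66 to 0.37 at 48 h and -0.19 to 0.21 at 72 h. It gave -1.48 to -0.47, -0.33 to 0.69 and -1.02 to -0.61 for the Cish differences of 48 minus 24 h, 72 minus 48 h and 72 minus 24 h. No value that turned in sign was called. For Cish they did so with limma at 48 h (0.12), and at 72 h with all libraries and the score (-0.16), the block (-0.12) and the score (-0.70); the difference of 72 minus 48 h was -0.0902 with the block. For the others at 24 h they did so with the score (Socs2 -0.76, Ghr -0.39, Stat5a 0.0074), limma (Socs3 0.0547), the block (Socs3 0.10), the mitochondrial share (Ghr -0.15) and all libraries with the score (Ghr -0.0054). At 48 h Socs2 and Prlr turned with all libraries and the score (-0.27, -0.30), the mitochondrial share (-0.0572, -0.95), the score (-0.38, -0.67) and only UNx replicate 6 (-0.31, -0.84), and Prlr with the block (-0.0208). At 72 h they did so with limma (Socs2 0.0334, Stat5a 0.0310, Bcl6 -0.0723), the score (Socs3 0.0087, Prlr 0.32) and the mitochondrial share (Bcl6 -0.0335). Leaving out 1 library turned Socs2 (-0.0888 to 0.54 at 24 h, -0.13 to 0.29 at 48 h, -0.23 to 0.0905 at 72 h), Socs3 (-0.14 to 0.39 at 24 h, -0.20 to 0.0715 at 72 h), Prlr (-0.27 to 0.18 at 48 h, -0.68 to 0.22 at 72 h), and at 72 h Ghr (-0.0734 to 0.0225), Stat5a (-0.0807 to 0.0303) and Bcl6 (-0.12 to 0.70). The cause was not tested. Of 536 alternative values of the other members, 424 kept direction and call, 47 lost a call, 8 gained one and 57 turned. Over all genes, 3852 calls at 24 h became 677 with the mitochondrial share, 80 with the score and 1754 with all libraries and the score. At 48 h 4696 became 0, 0 and 16, with 1713 and 2093 genes at an unadjusted p under 0.05 for the first pair, and 0 with only UNx replicate 6. At 72 h 249 became 664 in DESeq2, 809 in limma, 120 with the block and 87 with the score. The Cish log2 ratio over all nuclei was -1.94 as a mean over nuclei and -1.97 as a share after thinning, against -2.42. The fit with all libraries and the score, and the correlation with Cish, were chosen after seeing the data. Depth limits Socs1, too low to test in whole kidney, and Socs3, below 1 CPM in nuclei.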
